A study of Homo sapiens with 9 samples.

Results

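The neurotrophin receptor genes NTRK2, NTRK3, NGFR and SORT1 were followed in LAN5 cells, an established human neuroblastoma line. They were chosen by gene symbol as the rows of these 4 receptors among 25084 genes of the deposited expression table, and each symbol had 1 row. The cells were grown in RPMI-1640 with fetal calf serum, received a small interfering RNA (siRNA, a short RNA that directs the degradation of a matching transcript) by Nucleofector electroporation, and total RNA was taken after 72 h and sequenced. Cells of the siCTR group received a control siRNA, those of the siMYCN group 1 siRNA directed at MYCN, and those of the siHAND2 group 1 siRNA directed at HAND2, as far as the labels say. With 1 siRNA per target, loss of the target and other effects of that siRNA cannot be told apart. Each group has 3 libraries. LAN5 carries an amplified MYCN gene, and all groups share this background. MYCN and HAND2 are transcription factors with a basic helix-loop-helix domain, and the series was made to find genes that they regulate. Nothing in the labels says that replicates were separate cultures, so p-values measure only the spread between these libraries, which may be technical.

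Neurotrophins are secreted proteins that neurons of the sympathetic lineage, from which neuroblastoma arises, need for survival and differentiation. Trk receptors are tyrosine kinases: TrkB, made from NTRK2, binds BDNF and NT-4, and TrkC, made from NTRK3, binds NT-3. The receptor p75, made from NGFR, is a member of the tumour necrosis factor receptor family with a death domain. It binds every mature neurotrophin, and together with sortilin, the sorting receptor made from SORT1, it binds the uncleaved proneurotrophins. In neuroblastoma, high TrkC is known from tumours with a good outcome and TrkB from tumours with MYCN amplification. NTRK2 and NTRK3 also make truncated receptors without the kinase domain, and values per gene cannot separate these forms.

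Levels are in CPM, reads per gene scaled for library depth. The libraries held 21.1 to 32.7 M assigned reads, as read from the smallest steps of the low values, which puts the counting error at 1 CPM between 17.5% and 21.8%. No 2 libraries of a group agreed within counting noise (chi-square per degree of freedom of 3.53 to 12.39), and siHAND2 replicate 3 was the farthest from the other libraries of its group. The siRNA targets were checked first. MYCN averaged 1842 ± 54.2 CPM in siCTR (SD, n = 3) against 1289 ± 47.0 with siMYCN and 914 ± 48.4 with siHAND2, so it was at 70.0% of the siCTR level with its own siRNA and at 49.6% with the siRNA against HAND2. HAND2 averaged 501 ± 13.7 CPM in siCTR against 571 ± 15.9 with siMYCN and 272 ± 7.65 with siHAND2. MYCN was thus lower in siHAND2 than in siMYCN, and in the siHAND2 libraries low HAND2 and low MYCN cannot be told apart.

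Upstream sequence is shown because the receptors were higher in both knockdown groups and both siRNA targets bind DNA at E-boxes (CANNTG, where N is any base). RefSeq (GRCh38) held entries for NTRK2, NTRK3 and SORT1, and NGFR was not found there. The windows printed are those of NTRK3 and SORT1 whose RefSeq start lies at or near the start in the table. The 4 NTRK2 starts lie 755 to 33054 bases inside the gene as the table gives it, so their windows can hold transcribed sequence and are described without letters, as is a second SORT1 window 4783 bases inside that gene. Each printed run is the 250 bases before a RefSeq start, 5′ to 3′ on the strand of the gene, the minus strand for both genes. For SORT1 the table's own start was identical to the RefSeq start (chr1:109397919-109398168), and for NTRK3 it lay 29 bases away (chr15:88256740-88256989). Capitals mark every GGGCGG or its reverse complement, the core of the GC box bound by SP1-family factors, a motif added after the windows were seen. E-boxes on either strand would be in capitals too.
NTRK3: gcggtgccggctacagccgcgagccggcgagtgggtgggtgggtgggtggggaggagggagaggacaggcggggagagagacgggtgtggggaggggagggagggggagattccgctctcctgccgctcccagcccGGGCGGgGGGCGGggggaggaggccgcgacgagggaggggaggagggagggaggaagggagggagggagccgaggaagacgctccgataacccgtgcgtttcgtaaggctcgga
SORT1: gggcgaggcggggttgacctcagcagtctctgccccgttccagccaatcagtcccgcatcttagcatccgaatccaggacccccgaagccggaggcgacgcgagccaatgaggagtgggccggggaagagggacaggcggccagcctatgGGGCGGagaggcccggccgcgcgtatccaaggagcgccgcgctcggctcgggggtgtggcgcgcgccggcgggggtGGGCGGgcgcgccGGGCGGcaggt

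Both windows were rich in G and C (73.2% for NTRK3 and 74.0% for SORT1, against a median of 58.0% over 35116 RefSeq promoters). Neither holds CANNTG, which 61.8% of the promoters hold. The form CACGTG, the E-box that MYC-family proteins prefer, is in 6.3% of promoters, and CATCTG, read on either strand, in 12.2%. GGGCGG, read on either strand, is in 42.6% of promoters. Counted from the RefSeq start, it begins at positions -114 and -107 of NTRK3 and at -100, -24 and -11 of SORT1. The windows not printed do hold E-boxes in part: CATTTG and CATCTG in the inner SORT1 window, and in 2 of the 4 NTRK2 windows CAGGTG and CACCTG in one and CATGTG and CATATG in the other. The E-box content shown is thus that of the chosen windows, not of all starts of these genes. A window without a match says only that these letters are not in those 250 bases.

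Levels were compared between genes only per kilobase of exon. In siCTR cells SORT1 stood highest at 9.82 ± 0.348 CPM per kb (SD, n = 3), followed by NTRK2 at 1.64 ± 0.0737, NGFR at 0.407 ± 0.0632 and NTRK3 at 0.0249 ± 0.00528 CPM per kb. The spans of neighbours in this order did not overlap. The same order held in siMYCN cells (13.3, 2.26, 1.17 and 0.0753 CPM per kb) and in siHAND2 cells (10.9, 2.42, 0.958 and 0.0466 CPM per kb). It also held per kilobase of the longest coding transcript (12.8, 5.76, 0.494 and 0.0334 CPM per kb in siCTR), a check that matters for NTRK2, whose 36 annotated coding transcripts make its exons long in union (33.16 kb against 9.43 kb). Among these receptors, sortilin transcripts were thus the most abundant per kilobase in LAN5 cells, followed by TrkB, with less p75 and the least TrkC.

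NTRK2 (GRCh38 chr9:84668551-85027070, plus strand), the TrkB gene, gave 55.0, 56.4 and 51.6 CPM in siCTR libraries 1, 2 and 3. With siMYCN the values were 71.1, 74.4 and 79.4 CPM, and with siHAND2 they were 85.4, 74.5 and 80.5 CPM. Every knockdown library lay above every control library, and the knockdown groups overlapped each other. How many of all tested genes separate from siCTR in this way was not counted, so separation is only described, here and for the other receptors. The means were 54.3 ± 2.44, 74.9 ± 4.19 and 80.1 ± 5.44 CPM, ratios to siCTR of 1.38 and 1.48.

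NTRK3 (chr15:87859751-88256768, minus strand), the TrkC gene, was close to the limit of detection in control cells, at 0.673, 0.524 and 0.807 CPM, or about 22, 14 and 17 reads. It gave 2.38, 1.30 and 2.36 CPM in siMYCN, about 59, 34 and 69 reads. In siHAND2 it gave 1.15, 1.31 and 1.28 CPM, about 35, 33 and 36 reads. All 6 knockdown libraries lay above the controls, while siMYCN replicate 2 lay well under the other siMYCN libraries and within the siHAND2 values. The means were 0.668 ± 0.141, 2.01 ± 0.616 and 1.25 ± 0.0853 CPM, ratios to siCTR of 3.02 and 1.87. Since every siCTR library is under 1 CPM, NTRK3 entered the test only through its knockdown libraries.

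NGFR (chr17:49495293-49515008, plus strand), the p75 gene, gave 1.68, 1.95 and 1.42 CPM in the siCTR libraries, against 5.24, 4.36 and 4.97 with siMYCN and 4.41, 4.62 and 2.87 with siHAND2. These are about 30 to 55 reads in the control libraries and 81 to 145 reads in the others. The groups did not overlap with siCTR, and siHAND2 replicate 3 was the lowest knockdown library. The means were 1.68 ± 0.262, 4.86 ± 0.447 and 3.97 ± 0.955 CPM, ratios to siCTR of 2.88 and 2.35. The antisense gene AC015656.1 overlaps NGFR (chr17:49494223-49497800) but reached at most 0.0798 CPM in any library. In the table, no gene overlaps the other receptors.

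SORT1 (chr1:109309568-109397918, minus strand), the sortilin gene, gave 93.3, 87.7 and 87.8 CPM in the siCTR libraries, against 125.2, 118.9 and 121.2 with siMYCN and 104.8, 94.6 and 100.2 with siHAND2. Here the 3 groups were fully separate, with siHAND2 between siCTR and siMYCN. The means were 89.6 ± 3.18, 121.8 ± 3.18 and 99.9 ± 5.12 CPM, ratios to siCTR of 1.36 and 1.11.

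**Figure D1:**
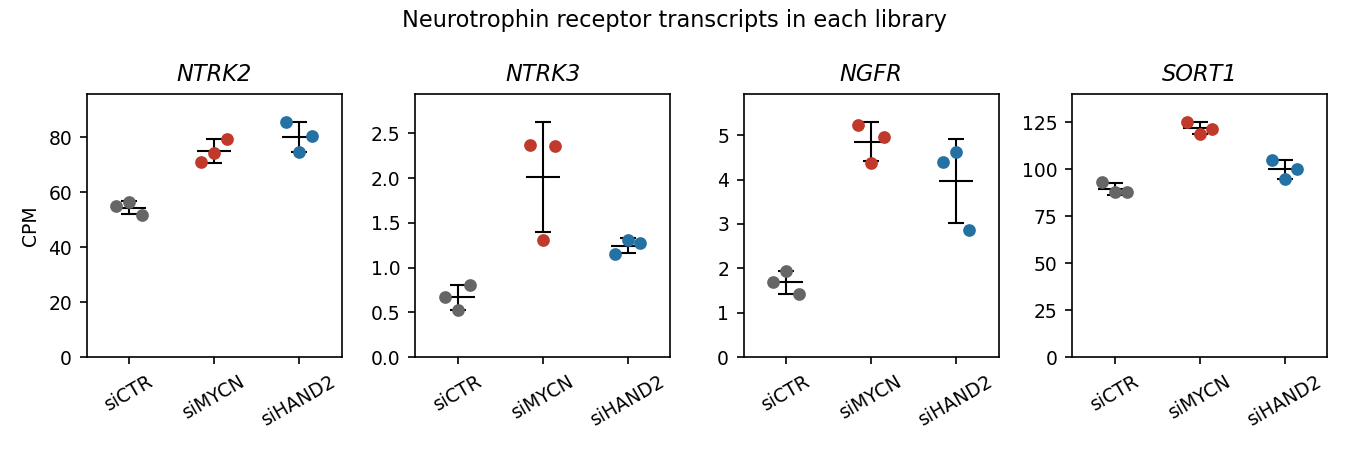
CPM of NTRK2, NTRK3, NGFR and SORT1 (1 panel each, vertical axis from 0) in the siCTR, siMYCN and siHAND2 libraries; points are libraries, the long line is the group mean and the bars are ± 1 SD over 3 libraries. Every knockdown library lies above every siCTR library in each panel, and in the SORT1 panel the 3 groups are fully separate, with siHAND2 between the others. The share of all tested genes with such separation was not counted.

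Which receptors responded to the siRNA against MYCN was tested with limma on log2(CPM + 1), in 1 model of the 14495 genes that reached 1 CPM in 3 or more libraries. NTRK2, NGFR and SORT1, which pass that filter in every library, rose in siMYCN, where 35.9% of all tested genes were called and 24.5% were called higher. On this scale, which understates the change of genes near 1 CPM, NGFR rose by 1.13 (SE 0.13, 95% interval 0.84 to 1.41, adjusted p = 9.17e-06), and 17 of the tested genes had a larger rise. NTRK2 rose by 0.46 (SE 0.06, 0.33 to 0.58, adjusted p = 1.52e-05), with 625 genes above it. SORT1 rose by 0.44 (SE 0.05, 0.34 to 0.54, adjusted p = 3.19e-06), with 703 genes above it. NTRK3 was higher by 0.84 (SE 0.15, 0.52 to 1.15, adjusted p = 0.000389), and with no filter the adjusted p was 0.000664. The median difference of all tested genes was 0.06. Each rise was seen in 3 of 3 siMYCN libraries.

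The same receptors were compared between siHAND2 and siCTR, where 29.9% of tested genes were called and 18.1% were called higher. NGFR rose by 0.87 on the log2 scale (SE 0.13, 0.59 to 1.16, adjusted p = 0.000125) and NTRK2 by 0.55 (SE 0.06, 0.43 to 0.67, adjusted p = 1.82e-06), with 144 and 414 genes above them. The other receptors gave small or thinly counted differences. SORT1 differed by 0.15 (SE 0.05, 0.05 to 0.25, adjusted p = 0.0210) and was called, but 3721 genes had a larger rise. Its call was lost with median-ratio rescaling (0.11, adjusted p = 0.0786) and without siCTR replicate 2, siCTR replicate 3 or siHAND2 replicate 1 (0.12 to 0.14). NTRK3 differed by 0.43 (0.12 to 0.75, adjusted p = 0.0371), with 710 genes above it, and was called. That call was lost with no filter (adjusted p = 0.051), with quantile normalization (0.35, adjusted p = 0.0993) and with a pseudocount of 5 (0.14, adjusted p = 0.0753). It was also lost without any 1 of 5 libraries (siCTR 1, siCTR 2 and each siHAND2 library). The contrasts against siCTR share their control libraries, and their values for the receptors are set side by side here without a test of their likeness.

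**Figure D2:**
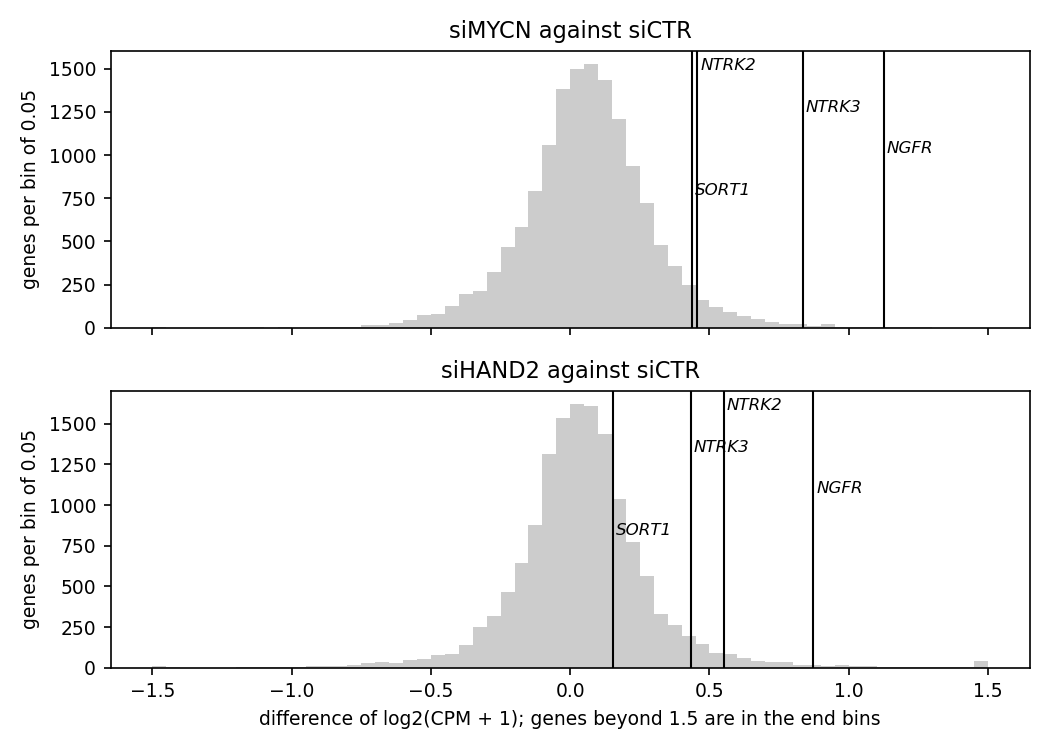
Number of tested genes in each bin of the difference in log2(CPM + 1), for siMYCN against siCTR (top) and siHAND2 against siCTR (bottom), with vertical lines at the receptors. NGFR lies farthest to the right in both panels, at 1.13 and 0.87, and SORT1 in the lower panel lies inside the bulk of the genes at 0.15.

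Between the knockdown groups themselves, 26.9% of tested genes were called and 15.5% were lower in siHAND2. SORT1 was lower in siHAND2 than in siMYCN by a log2 difference of -0.28 (SE 0.05, -0.38 to -0.18, adjusted p = 0.000236), a ratio of 0.820, in 3 of 3 libraries. NTRK3 differed by -0.40 (-0.72 to -0.09, adjusted p = 0.0551), which did not pass the threshold, and without siMYCN replicate 2 the difference was -0.59 and did (adjusted p = 0.00556). NGFR differed by -0.25 (-0.54 to 0.03, adjusted p = 0.180) and NTRK2 by 0.09 (-0.03 to 0.22, adjusted p = 0.243), neither past the threshold. For NTRK2 the interval leaves room for differences up to 0.22 and no more than 0.03 in the other direction. SORT1 was therefore the receptor whose level was shown to differ between the siRNAs.

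**Figure D3:**
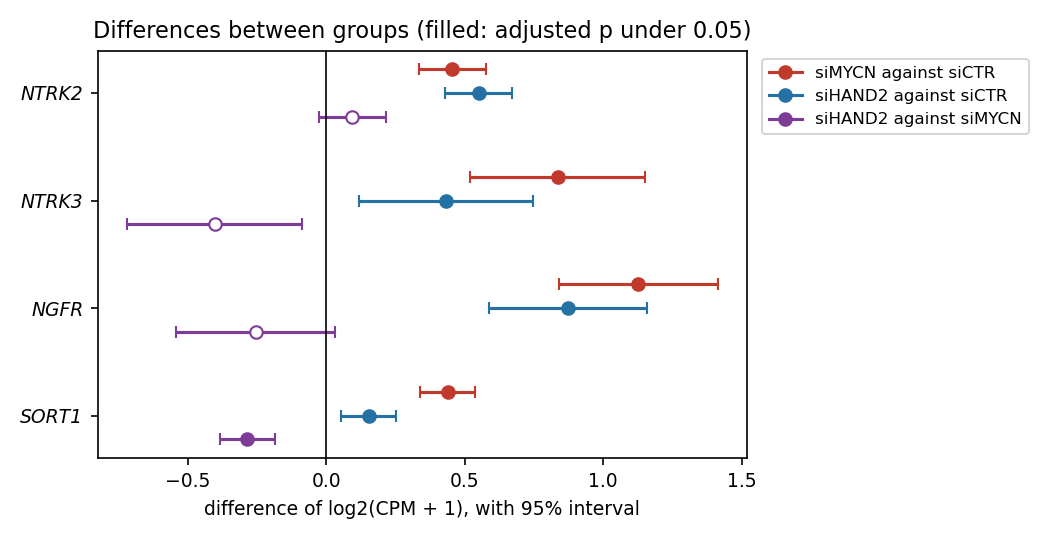
Differences in log2(CPM + 1) with 95% intervals of limma for each receptor and comparison; filled points have an adjusted p under 0.05. Against siCTR all points lie to the right of 0, and between siHAND2 and siMYCN only the SORT1 point is filled.

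Across the 9 libraries, Pearson's r of log2(CPM + 1) between receptors was between 0.644 (NTRK2 and SORT1) and 0.879 (NTRK3 and SORT1). These correlations describe libraries that fall into 3 groups, and the receptor values of any 1 library share its depth. Among 11199 genes averaging 5 CPM or more, the profiles most like NTRK2 were those of MB21D2 (r = 0.992), GABARAP (0.985) and STMN2 (0.985), the last a neuronal microtubule regulator that went from 176.5 ± 11.2 CPM in siCTR to 289 ± 9.74 in siMYCN and 343 ± 23.9 in siHAND2. Among the nearest to NTRK3 were CACFD1 (0.974) and TBRG1 (0.972), and the nearest to NGFR were NRXN2 (0.985), CNP (0.983) and APC2 (0.981). SORT1 was closest to CDH11 (0.995), TNC (0.995) and PNMA1 (0.992). TNC, the matrix protein tenascin C, went from 141.8 ± 7.95 CPM in siCTR to 298 ± 9.77 in siMYCN and 190 ± 20.3 in siHAND2.

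Of the ligands, BDNF, which activates TrkB, fell while NTRK2 rose in siMYCN. It gave 28.6, 29.6 and 29.1 CPM in the siCTR libraries, against 23.8, 24.6 and 24.3 with siMYCN and 27.3, 23.8 and 30.2 with siHAND2. All siMYCN libraries lay under the controls, and siHAND2 replicates spread over both groups. The log2 difference was -0.25 in siMYCN (SE 0.07, adjusted p = 0.0106) and -0.11 in siHAND2 (adjusted p = 0.284, but -0.18 and called without siHAND2 replicate 3). BDNF shares its locus with the antisense gene BDNF-AS (1.89 to 5.38 CPM over the libraries), and use of strand in the counting is not given in the sources used here. NTF3 and NTF4 were not analysed here.

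The counts in the gene lists are to be read against all genes tested, of which 24.5% were called higher and 11.4% lower in siMYCN, 18.1% higher and 11.8% lower in siHAND2, and 11.4% higher and 15.5% lower in siHAND2 against siMYCN. Of 10 related receptors and co-receptors, 7 were tested, and in siMYCN 5 rose and none fell (median log2 difference 0.21, against 0.06 over all genes tested). In siHAND2 2 rose and 2 fell (median -0.09, against 0.04), and without siCTR replicate 1 or 2 none was called lower. Compared directly, 1 was higher and 4 were lower in siHAND2 than in siMYCN (median -0.27, against -0.006). TNFRSF19, a relative of p75, rose from 2.39 ± 0.162 to 7.00 ± 0.548 CPM in siMYCN (log2 difference 1.23, adjusted p = 1.59e-06) and was at 2.20 ± 0.601 CPM in siHAND2 (-0.10, adjusted p = 0.571). The direct difference was -1.34 (adjusted p = 4.02e-07). KIDINS220, a scaffold that binds Trk receptors and p75, rose by 0.51 in siMYCN (adjusted p = 7.72e-07) and by 0.25 in siHAND2 (adjusted p = 0.000886). The sortilin relatives went different ways. SORCS1 rose from 79.3 ± 1.21 CPM to 92.1 ± 3.44 in siMYCN (0.21, adjusted p = 0.00150) and to 118 ± 4.61 in siHAND2 (0.57, adjusted p = 7.27e-08), and unlike SORT1 it was higher in siHAND2 than in siMYCN (0.36, adjusted p = 1.38e-05). SORL1 rose in siMYCN (0.33, adjusted p = 6.72e-05) and was called lower in siHAND2 (-0.17, adjusted p = 0.0157). The siHAND2 call was lost with no intensity trend and without siCTR replicate 1 or 2 (-0.15 to -0.13 without these libraries). TNFRSF21, the death receptor DR6, was called higher in siMYCN (0.15, adjusted p = 0.0324) and lower in siHAND2 (-0.17, adjusted p = 0.0218). The first call was lost with both rescalings, with no intensity trend and on leaving out any 1 of siCTR 1, 2 and 3 and siMYCN 1 and 3 (0.12 to 0.16). The second was lost on leaving out any 1 siCTR library or siHAND2 replicate 3 (-0.18 to -0.14). LINGO1 (0.15 and -0.04 against siCTR) and RTN4R (0.12 and -0.09), partners of p75 in the Nogo receptor complex, were not called in either knockdown. SORCS2 and SORCS3 were under 1 CPM in every library and were not tested, and NRADD was not analysed here.

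**Figure D4:**
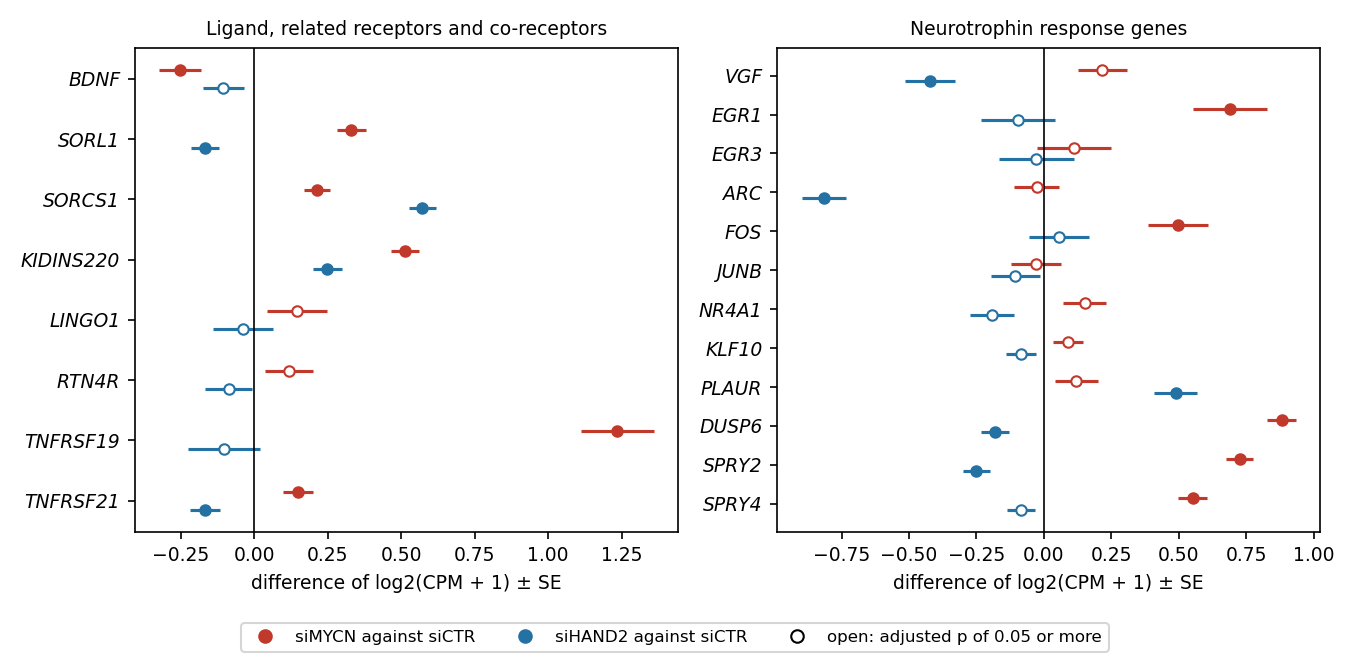
Differences in log2(CPM + 1) against siCTR, ± SE of limma, for BDNF and the tested related receptors (left) and for the tested neurotrophin response genes (right); filled points have an adjusted p under 0.05. TNFRSF19 lies above 1 in siMYCN, and DUSP6, SPRY2 and SPRY4 are right of 0 in siMYCN and left of it in siHAND2.

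Among enzymes that cleave proneurotrophins, 4 of 9 were tested, with 2 higher in siMYCN (24.5% of all genes), and 2 higher and 1 lower in siHAND2 (18.1% and 11.8% of all genes). The medians were 0.23 and 0.14, against 0.06 and 0.04 over all genes tested, on too few genes to describe the list further. PLAT, the tissue plasminogen activator that starts the plasmin cascade able to cleave proBDNF, rose from 3.73 ± 0.887 to 8.19 ± 0.801 CPM in siHAND2 (0.97, adjusted p = 2.31e-05) and was at 4.24 ± 0.545 CPM in siMYCN (0.16, adjusted p = 0.351). It was higher in siHAND2 than in siMYCN by 0.81 (adjusted p = 0.000139). The convertase PCSK7 rose in both (0.30, adjusted p = 0.000773, and 0.23, adjusted p = 0.00591). FURIN was called higher in siMYCN (0.32, adjusted p = 0.00953, lost without siCTR replicate 3), and PCSK6 lower in siHAND2 (-0.38, adjusted p = 0.0170, lost without siCTR replicate 1, siCTR replicate 2 or siHAND2 replicate 3).

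Trk adaptors and proximal signalling genes, which carry the signal from the activated kinase, numbered 24, of which 23 were tested. In siMYCN 11 rose and none fell (median 0.17, against 0.06), where 24.5% of all genes were called higher and 11.4% lower. Under both rescalings and without siCTR replicate 2, 7 of the 23 rose. The background fell with rescaling as well. Of all 14495 genes, 3556 were called higher in the main run, 2443 with median-ratio rescaling and 2333 with quantile normalization. In siHAND2 8 rose and none fell (median 0.11, against 0.04), where 18.1% of all genes were called higher and 11.8% lower. In the direct comparison 3 were higher and 7 lower in siHAND2, with 3 lower without siMYCN replicate 1. SHC1, the adaptor that docks on the Trk juxtamembrane tyrosine, rose from 63.0 ± 2.27 to 99.4 ± 3.80 CPM in siMYCN (0.65, adjusted p = 9.31e-08) and to 76.4 ± 3.48 CPM in siHAND2 (0.27, adjusted p = 0.000471). GAB2, a docking protein for PI3-kinase, rose from 129 ± 7.61 to 189 ± 10.6 CPM in siMYCN (0.55, adjusted p = 1.10e-06) and was at 122 ± 5.31 CPM in siHAND2 (-0.07, adjusted p = 0.312; direct difference -0.62, adjusted p = 1.39e-07). PIK3R1, the regulatory subunit of PI3-kinase, was highest in siHAND2: 48.7 ± 2.71 CPM in siCTR, 62.6 ± 1.44 in siMYCN (0.36, adjusted p = 3.43e-05) and 73.6 ± 1.60 in siHAND2 (0.59, adjusted p = 1.43e-07). IRS2, another docking protein, rose in siMYCN (0.44, adjusted p = 1.15e-05) and was called in siHAND2 (0.19, adjusted p = 0.0147). The siHAND2 call was lost with no intensity trend and without siCTR replicate 2, siCTR replicate 3 or siHAND2 replicate 2.

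Of 16 adaptors and cleavage enzymes of p75, 15 were tested. In siMYCN 8 rose and none fell (median 0.17, against 0.06, with 24.5% of all genes higher). With median-ratio rescaling 4 rose, where 2443 of all 14495 genes did. With quantile normalization 5 rose, where 2333 of all genes did. When siMYCN replicate 1 or either of siCTR replicates 1 and 2 was left out, 5 rose. In siHAND2 1 rose and 2 fell (median -0.01, against 0.04), where 18.1% and 11.8% of all genes did. These counts were unstable: none rose under either rescaling, with no intensity trend, or without siCTR replicate 1 or siHAND2 replicate 1, and none fell without siCTR replicate 2 or siHAND2 replicate 3. In the direct comparison none was higher and 6 were lower in siHAND2 (median -0.08, against -0.006), where 11.4% and 15.5% of all genes were. MAGED1, the p75 binding protein NRAGE, rose from 190 ± 4.58 to 239 ± 7.07 CPM in siMYCN (0.33, adjusted p = 7.93e-05) and was at 191 ± 13.9 CPM in siHAND2 (0.006, adjusted p = 0.946), a direct difference of -0.32 (adjusted p = 0.000101). ARHGDIA, which p75 displaces from RhoA (-0.30, adjusted p = 0.000421), IRAK1 (-0.33, adjusted p = 0.000666) and PSEN2, a catalytic subunit of gamma-secretase (-0.42, adjusted p = 0.000970), were also lower in siHAND2 than in siMYCN.

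Of 12 genes of sortilin trafficking and cargo, 11 were tested. In siMYCN 2 rose and 1 fell (1 rose and 2 fell under both rescalings), where 24.5% of all genes rose and 11.4% fell. In siHAND2 3 rose and 2 fell, where 18.1% and 11.8% of all genes did, and none rose under median-ratio rescaling or without siCTR replicate 1. With so few genes these shares are near those of all genes, and the medians (0.08 in both) lie near the all-gene medians of 0.06 and 0.04. AP1M1, a subunit of the AP-1 coat that sorts sortilin, rose in siMYCN (0.29, adjusted p = 0.000315) and was lower in siHAND2 than in siMYCN (-0.33, adjusted p = 8.60e-05), as SORT1 was. SNX2, a sorting nexin of the retromer, had the opposite direct difference (0.22, adjusted p = 0.00161). The clathrin adaptor GGA2, which binds the sortilin tail, was lower in siMYCN (-0.18, adjusted p = 0.00713) and in siHAND2 (-0.16, adjusted p = 0.0187, lost without siCTR replicate 3 or siHAND2 replicate 2). GGA1 was called higher in siMYCN (0.22, adjusted p = 0.0164), a call lost under both rescalings and without siCTR replicate 3, siMYCN replicate 1 or siMYCN replicate 2.

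Of 15 genes that neurotrophin signalling is known to induce, 12 were tested. In siMYCN 5 rose and none fell (median 0.18, against 0.06, with 24.5% of all genes higher), and between 3 and 6 rose over the alternatives. In siHAND2 1 rose and 4 fell (median -0.10, against 0.04), where 18.1% and 11.8% of all genes did. In the direct comparison 1 was higher and 9 were lower in siHAND2 (median -0.54, against -0.006), where 11.4% and 15.5% of all genes were. DUSP6, a MAP kinase phosphatase, went from 114 ± 7.18 CPM in siCTR to 210 ± 7.09 in siMYCN (0.88, adjusted p = 1.39e-08) and 100.1 ± 5.39 in siHAND2 (-0.18, adjusted p = 0.0151, lost without siCTR replicate 1, siCTR replicate 2 or siHAND2 replicate 2), and the knockdown groups differed by -1.06 (adjusted p = 1.62e-10). SPRY2, a feedback inhibitor of receptor tyrosine kinases, rose in siMYCN (0.73, adjusted p = 5.48e-08) and fell in siHAND2 (-0.25, adjusted p = 0.00143). SPRY4 rose in siMYCN (0.55, adjusted p = 1.20e-06) and was at -0.09 in siHAND2 (adjusted p = 0.252). ARC, a gene induced by BDNF at synapses, was at 8.33 ± 0.579, 8.15 ± 0.397 and 4.30 ± 0.159 CPM in siCTR, siMYCN and siHAND2, and fell in siHAND2 (-0.82, adjusted p = 1.37e-06; direct difference -0.79, adjusted p = 1.81e-06).

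Markers of other cells and states moved as follows, and their part in the receptor values was not tested. In bulk RNA, fewer cells of a type and less RNA per cell cannot be told apart. NGFR is also a Schwann cell marker. Of 10 Schwann cell and glial markers 7 were measured, and 6 of these were under 1 CPM in every siCTR library. SOX10, their defining factor, was at 0.230 to 0.532 CPM over all libraries. Their summed level was 36.97 to 39.6 CPM in siCTR, 58.0 to 61.2 in siMYCN and 61.1 to 68.9 in siHAND2. Without GAP43, which neurons also make and which was set aside after its values were seen, it was 2.28 to 3.22, 3.67 to 3.79 and 2.79 to 3.52 CPM. The 9 mesenchymal markers measured summed to 830 to 875 CPM in siCTR, 1027 to 1079 in siMYCN and 1410 to 1575 in siHAND2. VIM makes up most of this sum (525 ± 25.4, 696 ± 13.2 and 1011 ± 60.2 CPM). Of 7 mesenchymal markers tested, 3 rose and none fell in siMYCN (median -0.002, against 0.06), where 24.5% and 11.4% of all genes did. Over the alternatives 2 to 3 rose and up to 2 fell, with NOTCH2 called lower under both rescalings. In siHAND2 5 rose and 1 fell (median 0.66, against 0.04), where 18.1% and 11.8% of all genes did. The marker that fell in siHAND2 was CD44, from 6.79 to 4.94 CPM (-0.39, adjusted p = 0.00794). PRRX1 and COL1A1 averaged under 1 CPM in every group and were not tested, with lower means in both knockdowns than in siCTR. The 10 neuroblast markers summed to 2506 to 2649, 3154 to 3266 and 2698 to 2813 CPM. In siMYCN 9 rose and none fell (7 to 9 rose over the alternatives), where 24.5% and 11.4% of all genes did. In siHAND2 4 rose and 3 fell, where 18.1% and 11.8% of all genes did. Those that rose were GATA2, GATA3, ISL1 and STMN2 (0.14 to 0.95), and those that fell were DBH (-1.01), TH (-0.70) and DDC (-0.25). TH, a defining enzyme of the noradrenergic lineage, was low throughout, with group means of 2.95, 4.08 and 1.43 CPM, while DBH, CHGA, CHGB and ELAVL4 were each at over 100 CPM.

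**Figure D5:**
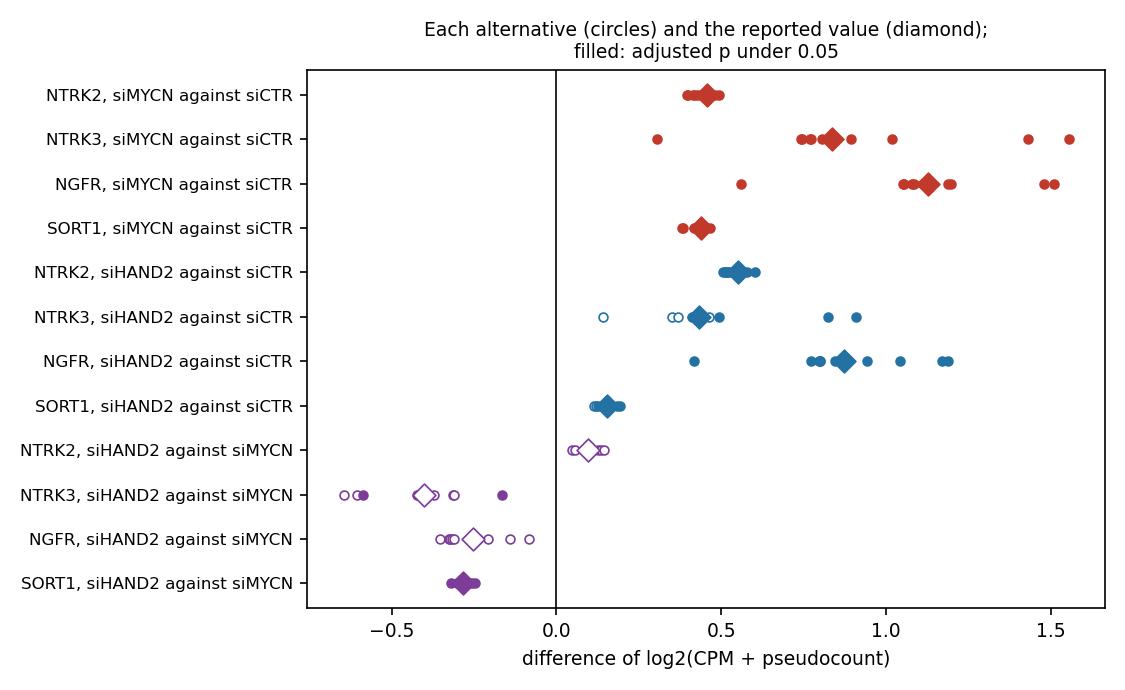
Difference in log2(CPM + pseudocount) of each receptor and comparison, with the reported value as a diamond and each alternative analysis as a circle; filled symbols have an adjusted p under 0.05. All symbols of siMYCN against siCTR are filled. Open symbols appear for NTRK3 and SORT1 in siHAND2 against siCTR, and for NTRK2, NTRK3 and NGFR in siHAND2 against siMYCN. The distant NTRK3 and NGFR circles are those with another pseudocount or precision weights.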

How the data were processed

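RNA sequencing libraries of LAN5 cells, 3 per siRNA, were analysed from 1 table. The authors deposited CPM values (reads per gene scaled to the same library total, with 0.0001 added). Per the submitters' processing notes, STAR 2.5.1 and Partek were used with hg19 (GRCh37). The table's own positions fit GRCh38 instead: 91.4% of 18213 gene starts lay within 5000 bp of the RefSeq GRCh38 start, against 5.6% of 18619 for a GRCh37 annotation. Positions are therefore given as GRCh38, counted from 1, with the end 1 base before the stop listed. Annotation, strand use and the treatment of reads that fit several genes are not given in the sources used here. Exon lengths came from a GRCh37 annotation by symbol.

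Low values were multiples of a step in only 79.7% to 81.1% of cases (up to 20 steps, within 0.02), so no count model was used. The step gave depth and the precision weights of 1 alternative. Intervals from depth cover counting error only. The values were tested as log2(CPM + 1). Of the genes, 14495 reached 1 CPM in 3 or more of the 9 libraries and 10589 were left out. The test was limma 3.58.1 in R 4.3.3 (all groups in 1 fit, eBayes with trend, 10.1 prior degrees of freedom), two-sided, Benjamini-Hochberg adjustment over all genes tested, threshold 0.05. The script was tested on simulated data.

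The receptors, the gene lists and the markers were chosen with earlier results of these data known. Named are the receptors, all ligands and related receptors, up to 4 called genes per other list by smallest adjusted p, and the 3 closest profiles per receptor; the marker genes named were chosen as examples. Values of some genes under this rule are not reported here, and those on the lists are left out of the list counts. Alternatives were pseudocounts of 0.1 and 5, median-ratio rescaling, no filter, quantile normalization, a filter of 5 CPM, the compared groups alone, no trend, replicate number as a block, precision weights and each library left out. Samples with the same replicate number deviated together from their group means in siCTR and siMYCN (r = 0.208, 0.102 and 0.215) and in siCTR and siHAND2 (0.154, 0.121 and 0.266), and not in every pair of siMYCN and siHAND2 (0.434, -0.129 and 0.245). By the rule that every r exceed 0.1, the numbers would pair the samples in the comparisons against siCTR. Samples with unlike numbers could pass 0.1 too, as siCTR 2 and siHAND2 1 did (r = 0.179), while the other unlike pairs of siCTR and siHAND2 had negative r. The pairing comes from this check alone. The main fit and its p-values do not use it, and only the replicate block does.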

Additional observations from a re-analysis of the deposited data

How the results depend on the processing

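Over 222 alternative values for the receptors, 206 kept direction and call, 13 lost the call, 3 gained one and none reversed. The filters, the compared groups alone, no trend, the replicate block and leaving out a library outside the comparison leave the difference itself unchanged. In those runs only the call could move, and no reversal was possible. All receptor calls in siMYCN, those of NTRK2 and NGFR in siHAND2 and that of SORT1 between the knockdowns held in every alternative run. The siMYCN difference of NTRK3 ranged from 0.30 to 1.55 and that of NGFR from 0.56 to 1.51 with the scale used. NTRK3 in siHAND2 against siCTR lost its call with a pseudocount of 5 (0.14, adjusted p = 0.0753), no filter (0.43, 0.051) and quantile normalization (0.35, 0.0993), and with a library left out it ranged from 0.37 to 0.49. SORT1 in the same comparison lost it with median-ratio rescaling (0.11, 0.0786) and no intensity trend (0.15, 0.061), and ranged from 0.12 to 0.19 with a library left out. NTRK3 in siHAND2 against siMYCN passed with a pseudocount of 5 (-0.16, adjusted p = 0.0438) and with the replicate block (-0.40, 0.0304), and ranged from -0.59 to -0.31 with a library left out. The cause was not tested. A filter of 5 CPM leaves NTRK3 and NGFR out, so it gave them no value.

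The replicate block changed no call against siCTR among the receptors, and the counts of called genes were 5895, 5089 and 4689 with it, against 5209, 4339 and 3892. Over all alternatives these counts stayed within 1.5 times. The share of called genes that were higher moved with scaling: in siMYCN from 68.3% to 51.2% (median-ratio) and 49.3% (quantile), in siHAND2 from 60.6% to 47.1% and 47.8%, while the median of all genes moved by at most 0.06. Depth limits NTRK3, whose control libraries hold about 14 to 22 reads.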
